A study of Mus musculus with 10 samples.

Results

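Genes of sugar metabolism were followed across 10 cultures of mouse bone marrow progenitors, each read on 1 Affymetrix Mouse Genome 430 2.0 array. The set held 35 gene symbols of glycolysis, of the handling of pyruvate and of the pentose phosphate pathway, listed by function. A probe set is the group of short probes that reads a stretch of 1 transcript, and the platform's annotation paired 32 of the 35 symbols with 70 of the 45101 probe sets. The expression of G6pdx, Gpi1 and Eno1 was not analysed here. Another 4 probe sets, annotated to a listed symbol together with other symbols, were not used. Probe sets were kept when their signal passed 369.318, the 40th percentile of all values, on at least 3 of the 10 arrays, which left 66 of the 70 and at least 1 for each of the 32 genes. The 4 dim probe sets read Aldoc, Ldhb, Pfkfb2 and Slc16a1. The signal that a probe set passed on 3 arrays was 125 for the Pfkfb2 probe set left out and 430 for the Eno2 probe set just inside. Over all genes, 30957 probe sets passed the same filter and were tested together.

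The cultures were grouped by the oncogene that had immortalised them. There was 1 array of MLL-ENL cells, and there were 3 clones each of NUP98-NSD1, HoxA9+Meis1 and HoxA9 cells. MLL-ENL is a fusion of the histone methyltransferase MLL with a transcription elongation factor, NUP98-NSD1 is a fusion of a nucleoporin with another histone methyltransferase, HoxA9 is a transcription factor of the homeobox family, and Meis1 binds DNA beside it. Every culture was derived with stem cell factor as the growth factor and without GM-CSF, none of the arrays held progenitors without an oncogene, and the labels do not say whether clones came from separate animals, so the spread between clones may be partly technical.

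Glycolysis splits glucose into pyruvate in the cytoplasm, after glucose transporters have let the sugar in and hexokinases have trapped it as glucose 6-phosphate. Pyruvate is reduced to lactate and exported, or enters mitochondria through pyruvate dehydrogenase, which the pyruvate dehydrogenase kinases inhibit. The pentose phosphate pathway leaves glycolysis at glucose 6-phosphate: its oxidative arm makes NADPH, which serves reductive synthesis, glutathione reduction and the oxidase of phagocytes, and its other arm makes ribose for nucleotides or returns carbon to glycolysis. Many of these genes are known targets of the hypoxia-inducible factors and of Myc.

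Arrays differed in brightness along group lines. The spiked-in hybridization controls averaged 14.01 to 14.13 on the log2 scale on the MLL-ENL and NUP98-NSD1 arrays and 13.18 to 13.42 on the HoxA9+Meis1 and HoxA9 arrays. The 3′ to 5′ signal ratios, a sign of RNA quality, split the same way, with 1.18 to 1.43 for Actb and 0.849 to 0.932 for Gapdh on the MLL-ENL and NUP98-NSD1 arrays and 1.09 to 1.17 and 0.777 to 0.836 on the others. Each array had been scaled to the same trimmed mean of 2500 before deposit, and median signals were 440 to 638 on the MLL-ENL and NUP98-NSD1 arrays and 579 to 660 on the others. NUP98-NSD1 against either of the other 3-clone groups crosses these 2 array sets, so set and group cannot be told apart there. The other 2 comparisons, MLL-ENL with NUP98-NSD1 and HoxA9+Meis1 with HoxA9, each stay within one. All 8 markers of myeloid progenitors (among them Kit, Mpo and Prtn3) were above the filter level in every group. In such bulk samples, fewer cells of a type and less RNA per cell cannot be told apart.

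Sugar genes were bright: 33 of the 66 kept probe sets lay in the brightest 10% of all probe sets. Values are linear signals, differences are differences of group means of log2(signal + 32), and a difference was called when limma's Benjamini-Hochberg adjusted p over all 30957 probe sets was under 0.05. Suffixes of probe sets matter here. By the maker's naming, _s_at and _x_at probe sets may also match other genes or pseudogenes, which abound for Gapdh, Aldoa, Tpi1, Pgk1 and Ldhb, and such values are uncertain to that extent.

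Adding Meis1 to HoxA9 went with lower signals of 2 pentose phosphate genes and of a hexokinase, and with higher signals of another pentose phosphate gene, a pyruvate dehydrogenase kinase and a glucose transporter. Pgd, which makes NADPH and ribulose 5-phosphate, fell at all 4 of its probe sets, by 0.79 to 0.98 on the log2 scale. Rpia, which isomerises ribulose 5-phosphate to ribose 5-phosphate, fell by 0.70. Pgls, the lactonase one step before Pgd, rose by 0.91, Pdk3 rose by 1.04, and Slc2a3 rose at 3 of 4 probe sets. No probe set of lower glycolysis was called.

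Of the 66 probe sets, 5 were called higher and 6 lower in HoxA9+Meis1 than in HoxA9 clones (16.7%), where 6.88% of all tested probe sets were called (3.39% higher and 3.49% lower). These calls came from 6 of the 32 genes, with 4 of Pgd and 3 of Slc2a3, so the share counts these 2 genes several times. The median difference was 0.07 over the members and -0.02 over all tested probe sets, and after quantile normalization both were within 0.01 of 0. With arrays shifted to a common median instead, the members had 4 called higher and 0 lower. By role, 6 of 10 probe sets of the pentose phosphate pathway were called, 4 of 25 of uptake and first steps, 1 of 12 of the fate of pyruvate and 0 of 19 of lower glycolysis. In limma's test 3 of those 19 had an unadjusted p under 0.05, 2 of the 3 of Pgk1 and 1 of Gapdh, with differences of 0.21 to 0.25.

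The 4 probe sets of Pgd gave one picture. Probe set 1438627_x_at had signals of 13808, 13193 and 13844 in HoxA9+Meis1 clones 1 to 3, against 20310, 28251 and 22713 in HoxA9 clones 1 to 3. The HoxA9+Meis1 clones lay within a narrow band and every HoxA9 clone was above it. The difference was -0.79 (95% interval -1.17 to -0.41, adjusted p = 0.0199 in limma). Probe set 1423706_a_at read 29787, 27785 and 31266 in HoxA9+Meis1 clones, against 42898, 70924 and 56020 in HoxA9 clones, a difference of -0.91 (adjusted p = 0.0221). Probe sets 1436771_x_at and 1437380_x_at differed by -0.98 and -0.90, and the groups did not overlap at any of the 4, which was so, with HoxA9+Meis1 lower, for 15.1% of all tested probe sets. HoxA9 clone 2 was the highest HoxA9 clone at all 4, and without it the differences were -0.66 to -0.77. No adjusted p of the 4 was then under 0.05 (0.0813 to 0.104), and none was without HoxA9+Meis1 clone 1 or 2 or HoxA9 clone 3. Aligning all arrays at one median ended the 4 calls as well.

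Rpia had signals of 21794, 19664 and 21155 in HoxA9+Meis1 clones, against 32176, 34270 and 35083 in HoxA9 clones. No clone of either group came near the other group. The difference was -0.70 (interval -0.93 to -0.46, adjusted p = 0.00347 in limma), and it lost its call only after the shift to a common median (adjusted p = 0.110). Pgls moved the other way, with 36194, 38418 and 30823 in HoxA9+Meis1 clones and 21901, 17958 and 16484 in HoxA9 clones. It was higher in 3 of 3 clones, by 0.91 (interval 0.63 to 1.19, adjusted p = 0.00203), and kept its call under every alternative run. The enzymes of the carbon exchange, transketolase (Tkt, 3 probe sets) and transaldolase (Taldo1, 1), had differences of -0.17 to 0.02, and none was called. For Taldo1 the interval of -0.35 to 0.25 bounds the difference.

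Pdk3, 1 of the kinases that inhibit pyruvate dehydrogenase, read 7829, 7989 and 8817 in HoxA9+Meis1 clones, against 3615, 4597 and 3769 in HoxA9 clones. The groups were well apart, and the difference of 1.04 (interval 0.76 to 1.32, adjusted p = 8.3e-04) was called under every alternative run. Its relatives were not called: the 4 probe sets of Pdk1 differed by -0.15 to 0.36, and Pdk2 read 629, 587 and 594 in HoxA9+Meis1 clones, against 936, 1376 and 1008 in HoxA9 clones (-0.82, adjusted p = 0.0643). Ldha, which makes lactate, differed by 0.23 (interval -0.05 to 0.51).

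The promoter windows of these 4 genes and of Ldha show where matches to the hypoxia response core lie in genes that did and did not move. The RefSeq promoter table (build GRCm38.p6) held 34 of the listed genes and lacked Slc2a3. Of the 34, 31 had the core ACGTG or GCGTG, on either strand, within the 250 bases before at least 1 start. By window it was 41 of 51, or 80.4%, against 38.6% of all 32851 windows of that length. The member windows were also richer in G and C (median 59.6%, against 52.4% in all windows) and in CG pairs (median 14, against 6), which the core contains. The E-box CACGTG, which Myc and its relatives bind and which holds the core on both strands, was in 6 of 51 windows (6.02% of all windows had it). The Meis core TGACAG was in 2 of 51, windows of Pfkfb2 and Pfkl, against 15.9% of all. A match is a description of letters, not evidence of binding. In the windows below, which run 5′ to 3′ up to the base before the start, capitals mark the hypoxia core or its reverse complement. Pgd and Ldha have 2 windows each in the table, of which the one with more matches is shown. The Pgd window shown is chr4:149166706-149166955 (minus strand), Rpia chr6:70792176-70792425 (minus), Pgls chr8:71591934-71592183 (plus), Pdk3 chrX:93832151-93832400 (minus) and Ldha chr7:46845554-46845803 (plus).
Pgd: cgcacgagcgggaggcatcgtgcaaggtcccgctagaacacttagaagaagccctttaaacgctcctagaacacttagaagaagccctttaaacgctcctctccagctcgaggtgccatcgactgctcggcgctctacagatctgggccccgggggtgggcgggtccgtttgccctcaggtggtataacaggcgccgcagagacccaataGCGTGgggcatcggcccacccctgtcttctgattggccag
Rpia: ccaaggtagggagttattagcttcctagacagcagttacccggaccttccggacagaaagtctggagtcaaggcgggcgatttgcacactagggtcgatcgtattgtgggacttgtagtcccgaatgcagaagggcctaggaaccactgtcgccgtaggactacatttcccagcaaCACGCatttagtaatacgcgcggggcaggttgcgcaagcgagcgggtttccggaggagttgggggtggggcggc
Pgls: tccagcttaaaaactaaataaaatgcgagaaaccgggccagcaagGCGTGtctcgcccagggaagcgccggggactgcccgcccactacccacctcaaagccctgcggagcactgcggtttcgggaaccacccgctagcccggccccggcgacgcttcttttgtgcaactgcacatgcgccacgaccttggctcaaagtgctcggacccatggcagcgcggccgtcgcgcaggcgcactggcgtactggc
Pdk3: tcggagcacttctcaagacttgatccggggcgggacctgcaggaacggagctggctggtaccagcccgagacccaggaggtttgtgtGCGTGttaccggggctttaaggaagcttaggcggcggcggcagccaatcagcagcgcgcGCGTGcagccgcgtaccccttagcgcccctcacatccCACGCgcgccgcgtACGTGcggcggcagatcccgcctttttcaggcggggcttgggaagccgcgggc
Ldha: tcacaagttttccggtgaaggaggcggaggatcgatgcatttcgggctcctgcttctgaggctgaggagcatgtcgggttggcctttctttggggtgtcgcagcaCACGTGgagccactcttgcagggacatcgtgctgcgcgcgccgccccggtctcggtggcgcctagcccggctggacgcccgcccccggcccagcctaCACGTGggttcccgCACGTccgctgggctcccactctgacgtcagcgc
Counted on both strands, the Ldha window shown had the most matches of all member windows (5), as each of its 2 E-boxes counts as 2 matches. The other Ldha window had 1, and Ldha was called in none of the 4 comparisons. Pdk3 had 4 matches at separate places, more places than in the Ldha window shown. The windows shown for Pgd, Rpia and Pgls had 1 each (the other Pgd window had 0), with Pgd and Rpia lower and Pgls higher in HoxA9+Meis1 clones.

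Slc2a3, a high-affinity glucose transporter of neutrophils, neurons and other cells, had the largest differences among the members. Probe set 1421924_at read 541, 273 and 1223 in HoxA9+Meis1 clones, against 34.4, 32.9 and 31.4 in HoxA9 clones, all below the filter level. That is at least 1.5-fold higher with HoxA9 set at the level (adjusted p = 0.0184 in limma). Probe set 1427770_a_at read 440, 473 and 991, against 241, 70.2 and 50.7 in HoxA9 clones, at least 1.56-fold higher (adjusted p = 0.0288). These 2 probe sets passed the filter on 4 and 6 arrays, all of them HoxA9+Meis1 or NUP98-NSD1 arrays. They were thus tested only because of the groups where they were high, and their adjusted p carry that limit. At the other 2 probe sets HoxA9+Meis1 clone 3 was above its fellows. Probe set 1437052_s_at read 3999, 4074 and 13728 in HoxA9+Meis1 clones, against 1239, 1627 and 2260 in HoxA9 clones (1.85, adjusted p = 0.0606). At 1455898_x_at the signals were 1570, 2038 and 5556, against 110, 444 and 959 in HoxA9 clones (2.70, adjusted p = 0.0460). The groups did not overlap at any of the 4, as for 13.5% of all tested probe sets with HoxA9+Meis1 higher. Without HoxA9+Meis1 clone 3, the 3 called probe sets still differed by 1.89 to 2.69, with adjusted p of 0.0741 to 0.142. Leaving out HoxA9+Meis1 clone 1 or HoxA9 clone 2 ended these 3 calls too, and each lost its call without 1 to 4 other clones. Slc2a1, the transporter of most cell types, differed by 0.07 to 0.21 at its 3 probe sets, and none was called.

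**Figure D1:**
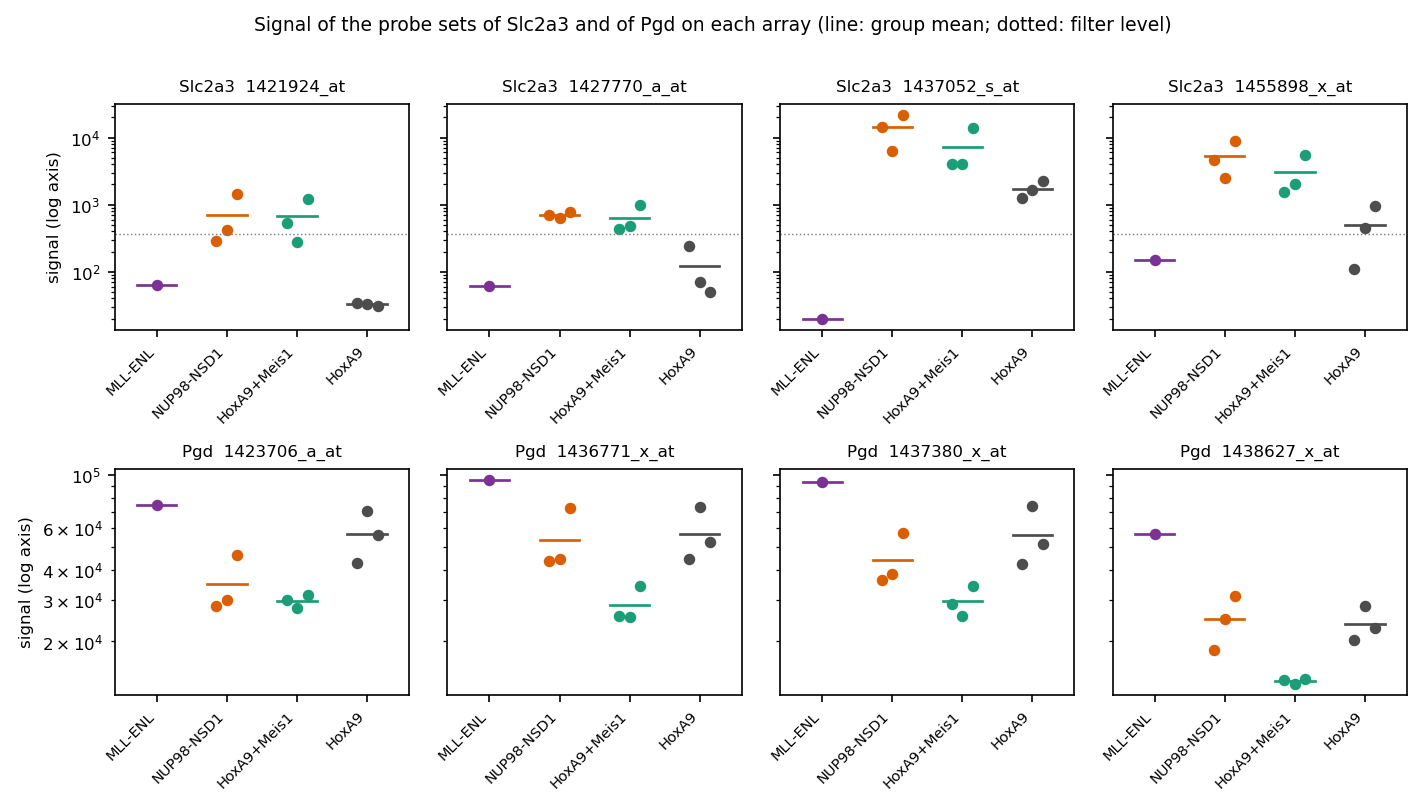
Signal on a log axis of the 4 probe sets of Slc2a3 (top) and of Pgd (bottom) on each array, by group; points are arrays, bars are group means and the dotted line is the filter level. At every Slc2a3 probe set the MLL-ENL array is below the filter level and the HoxA9 clones are below the HoxA9+Meis1 clones, and at every Pgd probe set the HoxA9+Meis1 clones are below the HoxA9 clones.

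Hexokinases followed no common course. Hk1 fell at probe set 1420901_a_at, with 3070, 3429 and 4936 in HoxA9+Meis1 clones, against 5531, 7603 and 8245 in HoxA9 clones (-0.91, adjusted p = 0.0207). Its other probe set differed by -0.48 (adjusted p = 0.111), and the call at the first was lost without HoxA9+Meis1 clone 1 or 2 or HoxA9 clone 2 or 3 (adjusted p = 0.0816 to 0.0860). Hk2, the inducible hexokinase, differed by 0.08 (interval -0.22 to 0.38). Hk3, the hexokinase of myeloid cells, read 13975, 7047 and 21197 at 1435490_at in HoxA9+Meis1 clones, against 20988, 25436 and 25985 in HoxA9 clones. HoxA9+Meis1 clone 3 reached the range of the HoxA9 clones, and the difference of -0.91 was not called (adjusted p = 0.131). None of the 13 probe sets of the phosphofructokinases (Pfkl, Pfkm, Pfkp) and of Pfkfb2, Pfkfb3 and Pfkfb4, which make or remove their activator fructose 2,6-bisphosphate, was called.

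**Figure D2:**
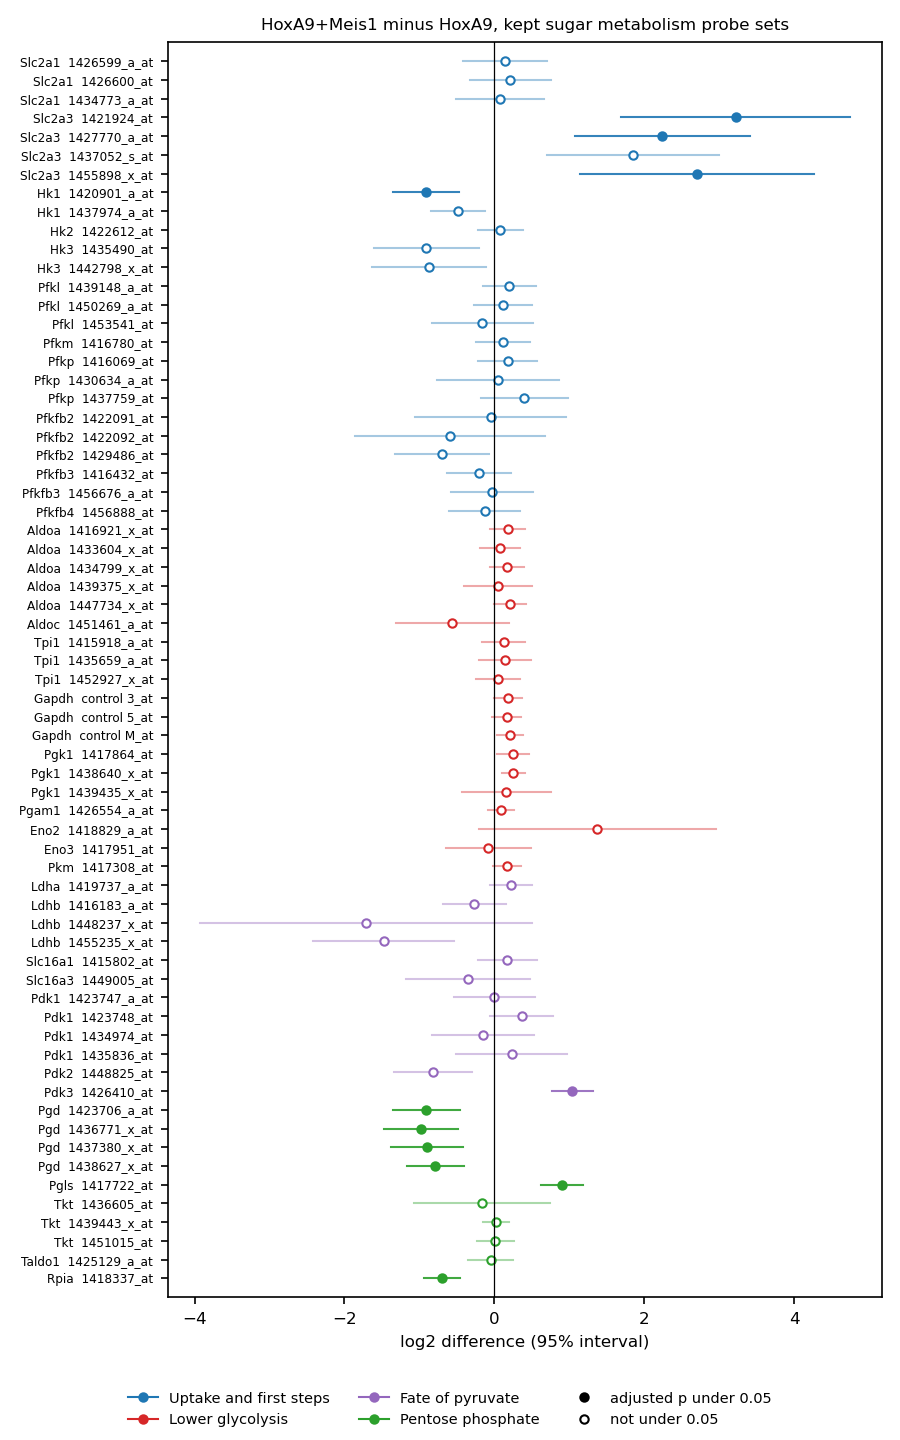
Difference of HoxA9+Meis1 minus HoxA9 means of log2(signal + 32) for the 66 kept probe sets, with 95% intervals from limma, coloured by role; filled points have an adjusted p under 0.05 over all tested probe sets. The called points are 3 of Slc2a3, Pdk3 and Pgls to the right of 0 and 4 of Pgd, Rpia and 1 of Hk1 to the left, and no red point of lower glycolysis is filled.

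Related lists, chosen by function, put these genes in context. Between HoxA9+Meis1 and HoxA9 clones 6.88% of all tested probe sets were called (3.39% higher and 3.49% lower). Of other genes of the same pathways, 4 probe sets were called higher and 3 lower in HoxA9+Meis1 than in HoxA9 clones, of 39 kept. The higher ones were Prps2, which turns ribose 5-phosphate into the nucleotide precursor (mean signals 20149 and 8356, difference 1.26, adjusted p = 2.3e-04), the gluconeogenic Fbp1 (1.17), the transporter Slc2a6 (2.42) and the phosphatase Pdp1 (1.12). The lower ones were Galm (at least 1.57-fold), H6pd (-1.01), which makes NADPH in the endoplasmic reticulum, and Rpe (-0.52), which acts on ribulose 5-phosphate beside Rpia. Pdp1, H6pd and Rpe were named after their values were seen.

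Among 26 probe sets of NADPH users and oxidative defence, 2 were called higher, both of Txnrd1, and 6 lower, beside 6.88% of all tested probe sets. The lower ones were 2 each of Idh1, a cytoplasmic maker of NADPH, Gsr, which spends NADPH to reduce glutathione, and Gclm, of glutathione synthesis. Idh1 averaged 13389 at 1422433_s_at in HoxA9+Meis1 clones and 34946 in HoxA9 clones (-1.38, adjusted p = 2.7e-04), and Gsr averaged 12711 at 1421817_at in HoxA9+Meis1 clones and 27592 in HoxA9 clones (-1.12, adjusted p = 0.00611). Txnrd1 and Gclm were named after their values were seen. Hypoxia response genes outside glycolysis had 4 of 46 called, all lower, 2 each of Vegfa (-1.67 and -1.54) and Mxi1 (-1.35 and -0.93). Mlx, the partner of the glucose-sensing factors, fell at 2 probe sets (-1.32 and -0.78), and none of the other 21 probe sets of Myc and related regulators was called. The citric acid cycle list had 4 higher and 1 lower of 47, each by at most 0.57.

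Markers of other blood cells differed between these groups too. The 7 measured monocyte and macrophage markers summed to 34146 to 76885 in HoxA9+Meis1 clones, against 18469 to 28837 in HoxA9 clones, with 6 of 7 above the filter level in both and Marco below it. Ctss was 14288 to 21811 in HoxA9+Meis1 clones, against 373 to 1062 in HoxA9 clones. Cx3cr1 was also higher in every HoxA9+Meis1 clone, while Csf1r, Adgre1, Cd14 and Mrc1 overlapped between the groups. Myeloid progenitor markers summed to 473195 to 481024 in HoxA9+Meis1 clones, against 573565 to 628006 in HoxA9 clones. Elane, a granule protease, was 13902 to 25137 in HoxA9+Meis1 clones, against 106958 to 116367 in HoxA9 clones. Ptprc, Spi1, Prtn3 and Ctsg were also lower in every HoxA9+Meis1 clone, and Kit and Cebpa overlapped between the groups. Mpo went the other way, with 145387 to 151814 in HoxA9+Meis1 clones and 126200 to 142660 in HoxA9 clones. The part of these cell states in the sugar gene differences was not tested.

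NUP98-NSD1 cells had higher signals of several sugar genes than both HoxA9+Meis1 and HoxA9 cells. Hk2 and Pfkfb4 were up about 2-fold, Slc2a1 rose at 2 of 3 probe sets and Hk1 at 1 or 2 of 2. Aldoc, an aldolase otherwise typical of brain, was 9.44-fold and 6.40-fold higher at its 1 kept probe set. Taldo1 rose by 0.99 and 0.94, while 1 of the 3 probe sets each of Ldhb and Pfkp fell. The very bright Gapdh (3 probe sets) and Tkt (2 of 3) were also called higher in both comparisons as deposited, but quantile normalization reversed that direction at 2 Gapdh probe sets and 1 of Tkt.

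Of the 66 probe sets, 19 were called higher and 4 lower in NUP98-NSD1 than in HoxA9+Meis1 clones (34.8%), where 30.9% of all tested probe sets were called. Against HoxA9 clones 23 were higher and 4 lower (40.9%), where 29% of all were called. The direction differed from the background more than the share did: of all tested probe sets 13.8% were called higher and 17.2% lower against HoxA9+Meis1, and 12.3% higher and 16.7% lower against HoxA9. The median member difference was 0.17 against HoxA9+Meis1 and 0.26 against HoxA9, and that of all tested probe sets was -0.13 and -0.14. By role, uptake and first steps had 7 higher and 1 lower of 25 against HoxA9+Meis1 and 10 and 1 against HoxA9, lower glycolysis 4 and 1 of 19 and 7 and 1, the fate of pyruvate 2 and 1 of 12 in each, and the pentose phosphate pathway 6 and 1 of 10 and 4 and 1. Uptake and first steps thus had 32% of its probe sets called against HoxA9+Meis1, near the 30.9% of all. Both comparisons use the same NUP98-NSD1 arrays, so their lists are not independent.

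Array scaling bears on these counts, since members are bright. In the brightest 10% of all probe sets 27.3% were called higher against HoxA9+Meis1 and 30.9% against HoxA9, and of the 33 members there 10 and 11 were. After quantile normalization the calls against HoxA9 were 14 higher and 9 lower, and the member median was -0.08. Against HoxA9+Meis1 they were 16 and 8, with a median of 0.03. Cyclic loess gave 20 higher and 5 lower against HoxA9+Meis1 and 19 and 4 against HoxA9. Shifting arrays to a common median raised the median of all tested probe sets by 0.15 against HoxA9+Meis1 and by 0.19 against HoxA9, and the members then had 16 and 2 calls and 23 and 2 calls. Over the deposited, quantile, cyclic loess and common median scalings, 82.6%, 66.7%, 80% and 88.9% of member calls against HoxA9+Meis1 were higher. Among the calls of all tested probe sets the shares were 44.5%, 45.3%, 52.5% and 61%. Against HoxA9 they were 85.2%, 60.9%, 82.6% and 92% of member calls, and 42.5%, 44.3%, 52.8% and 64.3% of all calls. Relative to the median of all probe sets, the member median was higher by 0.12 to 0.30 against HoxA9+Meis1 and by 0.02 to 0.40 against HoxA9 over the 4 scalings. Under all 4 scalings, 14 probe sets of 11 genes were called higher and 2 lower against HoxA9+Meis1, and 14 of 10 genes higher and 2 lower against HoxA9.

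**Figure D3:**
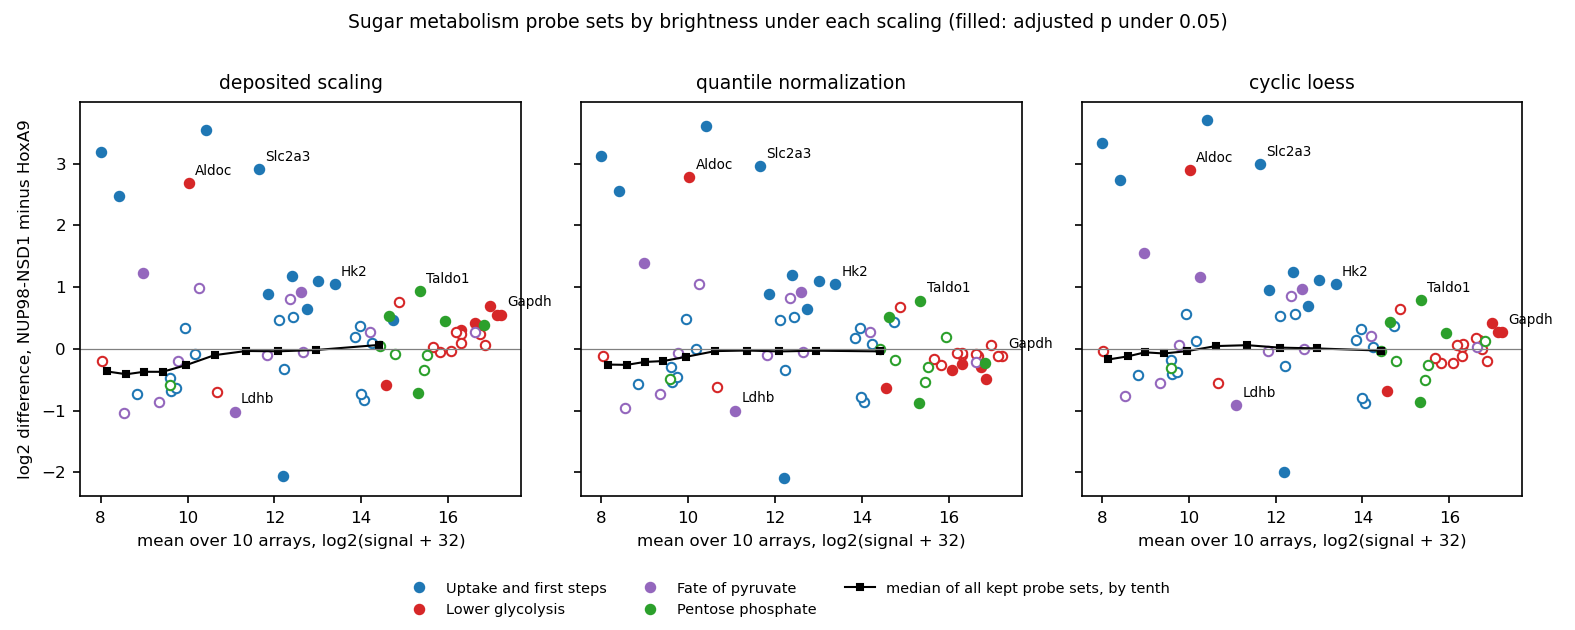
Difference of NUP98-NSD1 minus HoxA9 means for the 66 kept probe sets against their mean log2(signal + 32), as deposited, after quantile normalization and after cyclic loess, coloured by role; filled points have an adjusted p under 0.05 and the black line joins medians of all kept probe sets in 10 classes of brightness. Slc2a3, Aldoc, Hk2 and Taldo1 stay above the line in each panel and Ldhb below it, while the 3 Gapdh points are above 0 as deposited and after cyclic loess and lie around 0 after quantile normalization.

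Among genes of uptake and phosphorylation, Hk2 was called at its 1 probe set in both comparisons. It read 19990, 16626 and 15531 in NUP98-NSD1 clones, against 8300, 7949 and 10316 in HoxA9+Meis1 clones and 8985, 7282 and 8788 in HoxA9 clones. Every NUP98-NSD1 clone was above every clone of the other groups, by 0.97 against HoxA9+Meis1 (adjusted p = 6.5e-04) and by 1.05 against HoxA9 (adjusted p = 4.5e-04). Slc2a1 at 1426599_a_at read 10943, 6817 and 8838 in NUP98-NSD1 clones, against 4384, 3095 and 5436 in HoxA9+Meis1 clones and 2983, 5136 and 3596 in HoxA9 clones (1.05 and 1.19). Probe set 1434773_a_at gave 1.02, a call lost without NUP98-NSD1 clone 1 or HoxA9+Meis1 clone 2, and 1.10, while 1426600_at, with 0.31 and 0.52, was called in neither comparison. Hk1 at 1420901_a_at read 11002, 9656 and 12680 in NUP98-NSD1 clones. That was 1.56 above HoxA9+Meis1 clones (adjusted p = 3.9e-04) and 0.65 above HoxA9 clones (adjusted p = 0.0323), and the second call was lost without any of 4 clones. Hk3 was not called at either probe set in either comparison.

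Slc2a3 was higher than in HoxA9 clones at all 4 probe sets and was called at none against HoxA9+Meis1. Probe set 1437052_s_at read 14514, 6393 and 22039 in NUP98-NSD1 clones, 7.53-fold above HoxA9 clones (adjusted p = 0.00259). Its difference from HoxA9+Meis1 clones was 1.06 (interval -0.09 to 2.21), and HoxA9+Meis1 clone 3 lay within the NUP98-NSD1 range. Probe sets 1421924_at and 1427770_a_at, below the filter level in every HoxA9 clone, were at least 1.47-fold and 1.84-fold higher. Both had passed the filter only through NUP98-NSD1 and HoxA9+Meis1 arrays, which limits these 2 calls.

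Phosphofructokinase genes differed by probe set. Pfkp at 1430634_a_at read 1214, 1398 and 3994 in NUP98-NSD1 clones, against 8526, 7028 and 9426 in HoxA9+Meis1 clones and 6589, 10007 and 7747 in HoxA9 clones. Clone 3 was the highest of the NUP98-NSD1 clones and still below every clone of the other groups, and the differences were -2.11 (adjusted p = 0.00206) and -2.06 (adjusted p = 0.00261). The other Pfkp probe sets, 1416069_at and 1437759_at, differed by 0.01 and -0.06 against HoxA9+Meis1 and by 0.19 and 0.34 against HoxA9, with no call. Which transcripts of Pfkp each of the 3 reads was not analysed here. Pfkl rose at 1 of 3 probe sets against HoxA9 (0.47, adjusted p = 0.0480), a call that left after 7 of the 9 single clones were removed, and Pfkm was not called. Pfkfb4 rose by 1.01 against HoxA9+Meis1 and by 0.88 against HoxA9, and Pfkfb3 rose at 1 of 2 probe sets against HoxA9+Meis1 alone (0.67, adjusted p = 0.0230), with 0.46 against HoxA9 (adjusted p = 0.0932). The Pfkfb3 call was lost without the intensity trend and without NUP98-NSD1 clone 3 or HoxA9+Meis1 clone 1 or 2 (adjusted p = 0.0650 to 0.0822 without a clone).

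In lower glycolysis Aldoc stood out. It read 5506, 3083 and 5599 in NUP98-NSD1 clones, against 367, 337 and 754 in HoxA9+Meis1 clones and 748, 776 and 556 in HoxA9 clones. The lowest NUP98-NSD1 clone was far above the highest clone of the others, with differences of 3.24 (adjusted p = 1.5e-04) and 2.68 (adjusted p = 4.1e-04). Aldoa, the main aldolase, has 5 kept probe sets, and it was the one gene called in both directions against HoxA9: 1434799_x_at was higher by 0.42, but by -0.09 after quantile normalization, and 1447734_x_at was lower by 0.58. Probe set 1447734_x_at read 20185, 17806 and 17375 in NUP98-NSD1 clones, against 30648, 30369 and 34502 in HoxA9+Meis1 clones (-0.79, adjusted p = 2.9e-04) and 27451, 30064 and 25346 in HoxA9 clones (adjusted p = 0.00166). The other 3 were called in neither comparison.

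Gapdh was read by 3 control probe sets of the array, for the 3′ end, the middle and the 5′ end of its transcript. The 3′ probe set read 152684, 162907 and 184083 in NUP98-NSD1 clones, against 116606, 111579 and 121461 in HoxA9+Meis1 clones and 104625, 110628 and 94245 in HoxA9 clones. All 3 were called higher in both comparisons, by 0.34 to 0.51 against HoxA9+Meis1 and by 0.55 to 0.69 against HoxA9. After quantile normalization the middle and 5′ probe sets were lower instead, by -0.14 and -0.11 against HoxA9+Meis1 and by -0.11 and -0.12 against HoxA9. Pgk1 at 1417864_at and Pkm, higher against HoxA9 by 0.39 and 0.30 as deposited, had -0.12 and -0.06 there. Neither was called against HoxA9+Meis1, and the Pkm call was also lost under 6 other alternatives. Beta-actin (Actb), no sugar gene but as bright, was higher by 0.59 to 0.80 against HoxA9 at its 3 control probe sets and by 0.67 at 1436722_a_at, and lower by -1.76 at 1419734_at. Tpi1, Pgam1, Eno2 and Eno3 were called in neither comparison.

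**Figure D4:**
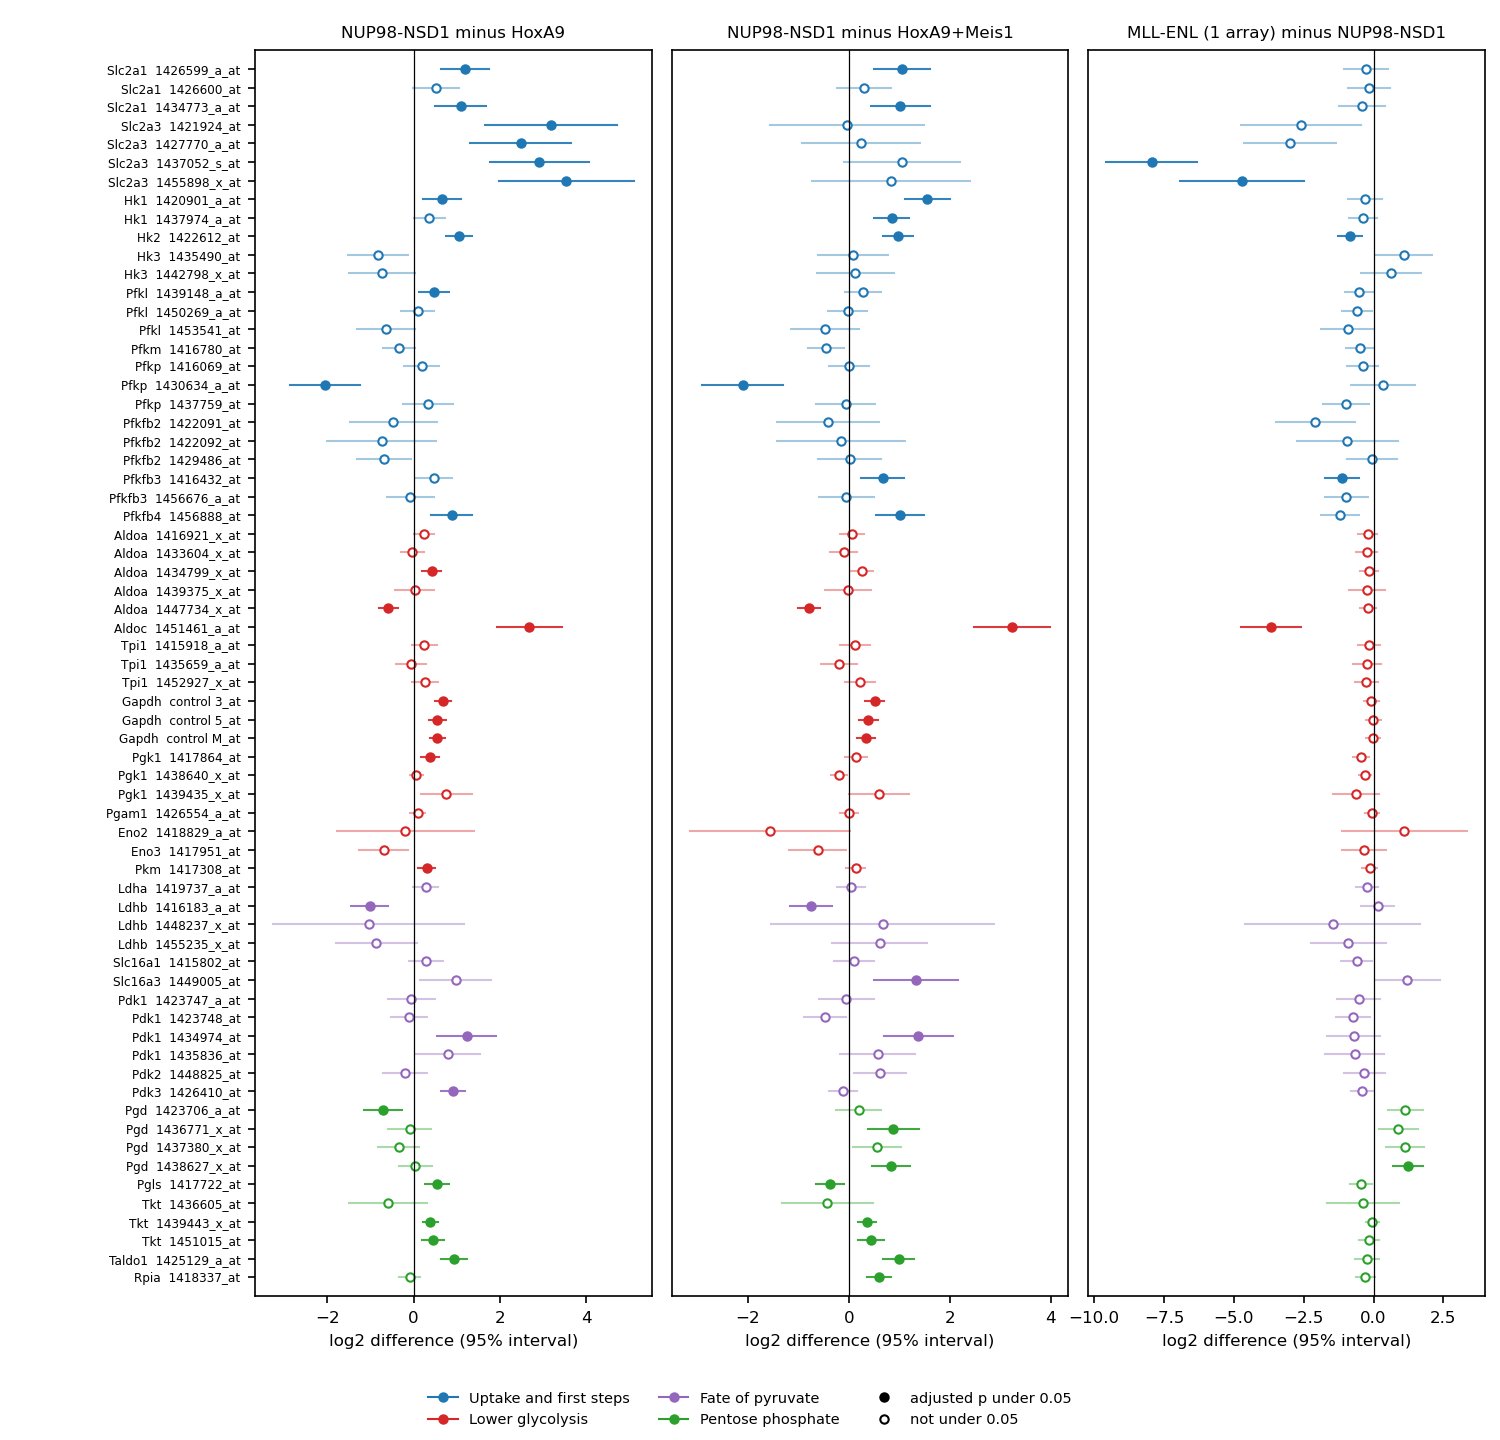
Differences of means of log2(signal + 32) with 95% intervals from limma for the 66 kept probe sets, coloured by role, for NUP98-NSD1 minus HoxA9 (left), NUP98-NSD1 minus HoxA9+Meis1 (middle) and MLL-ENL minus NUP98-NSD1 (right, from 1 MLL-ENL array, hence wider intervals); filled points have an adjusted p under 0.05. Aldoc, Hk2 and Taldo1 are to the right of 0 in the left and middle panels and 1 Pfkp point is far to the left there, while in the right panel Aldoc and 2 Slc2a3 points are far to the left.

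The genes acting on pyruvate went different ways. Ldhb, the lactate dehydrogenase subunit typical of heart, read 1260, 1466 and 1684 at 1416183_a_at in NUP98-NSD1 clones, against 2454, 2707 and 2298 in HoxA9+Meis1 clones (-0.75, adjusted p = 0.0133) and 2408, 3742 and 2970 in HoxA9 clones (-1.02, adjusted p = 0.00325). The NUP98-NSD1 clones were the lowest at this probe set, though the call against HoxA9+Meis1 was lost without HoxA9+Meis1 clone 2 (adjusted p = 0.0527) and with arrays aligned at one median. The other 2 Ldhb probe sets, 1448237_x_at and 1455235_x_at, were not called, with 0.67 and 0.61 against HoxA9+Meis1, the opposite sign, and -1.04 and -0.86 against HoxA9. Slc16a3, the exporter of lactate known as MCT4, read 1496, 1341 and 2856 in NUP98-NSD1 clones, against 640, 973 and 529 in HoxA9+Meis1 clones (1.33, adjusted p = 0.0212) and 564, 953 and 1319 in HoxA9 clones (0.98, adjusted p = 0.0721). Its call was lost without NUP98-NSD1 clone 3 or HoxA9+Meis1 clone 1 or 3 (adjusted p = 0.0629 to 0.0699). Pdk1 rose at 1 of 4 probe sets, 1434974_at, by 1.38 and 1.23. The other 3 Pdk1 probe sets were called in neither comparison. Pdk3 was higher than in HoxA9 clones by 0.92 (adjusted p = 6.0e-04) and differed from HoxA9+Meis1 clones by -0.12 (interval -0.40 to 0.16). Ldha differed by 0.05 (interval -0.23 to 0.33) against HoxA9+Meis1 and by 0.28 (interval from just under 0 to 0.56) against HoxA9, and was not called.

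In the pentose phosphate pathway Taldo1 was the clearest. It read 54084, 60274 and 77585 in NUP98-NSD1 clones, against 35643, 27109 and 33499 in HoxA9+Meis1 clones and 31174, 34240 and 33720 in HoxA9 clones. The groups were apart, with differences of 0.99 (adjusted p = 6.0e-04) and 0.94 (adjusted p = 8.5e-04) that were called under all 4 scalings. Tkt was called higher at 2 of 3 probe sets in both comparisons as deposited, but after quantile normalization 1439443_x_at differed by -0.06 against HoxA9+Meis1 and was called lower against HoxA9 (-0.22). At 1451015_at both Tkt calls were lost with arrays aligned at one median and without the trend, and the one against HoxA9+Meis1 also without HoxA9+Meis1 clone 2 (adjusted p = 0.0544). Rpia was higher than in HoxA9+Meis1 clones by 0.61 (adjusted p = 0.00227) and differed from HoxA9 clones by -0.09. Pgls was lower than in HoxA9+Meis1 clones by 0.37 (adjusted p = 0.0474) and higher than in HoxA9 clones by 0.54 (adjusted p = 0.0103). The first of these Pgls calls was lost under 10 of 21 alternatives, 5 of them the removal of 1 clone (either NUP98-NSD1 clone 1 or 2, HoxA9+Meis1 clone 1 or 2, or HoxA9 clone 2), and the second under none. Pgd was called higher at 2 of 4 probe sets against HoxA9+Meis1, 1436771_x_at (0.89) and 1438627_x_at (0.83), and the call at 1436771_x_at was lost without HoxA9+Meis1 clone 1 or 2 (adjusted p = 0.0504 and 0.0528). Against HoxA9 it was called lower at 1423706_a_at alone (-0.71), while the other 3 differed by -0.34 to 0.04. That call was lost under 6 of 19 alternatives, among them the removal of NUP98-NSD1 clone 1 or 2 or HoxA9 clone 2 or 3 (adjusted p = 0.0618 to 0.0886).

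**Figure D5:**
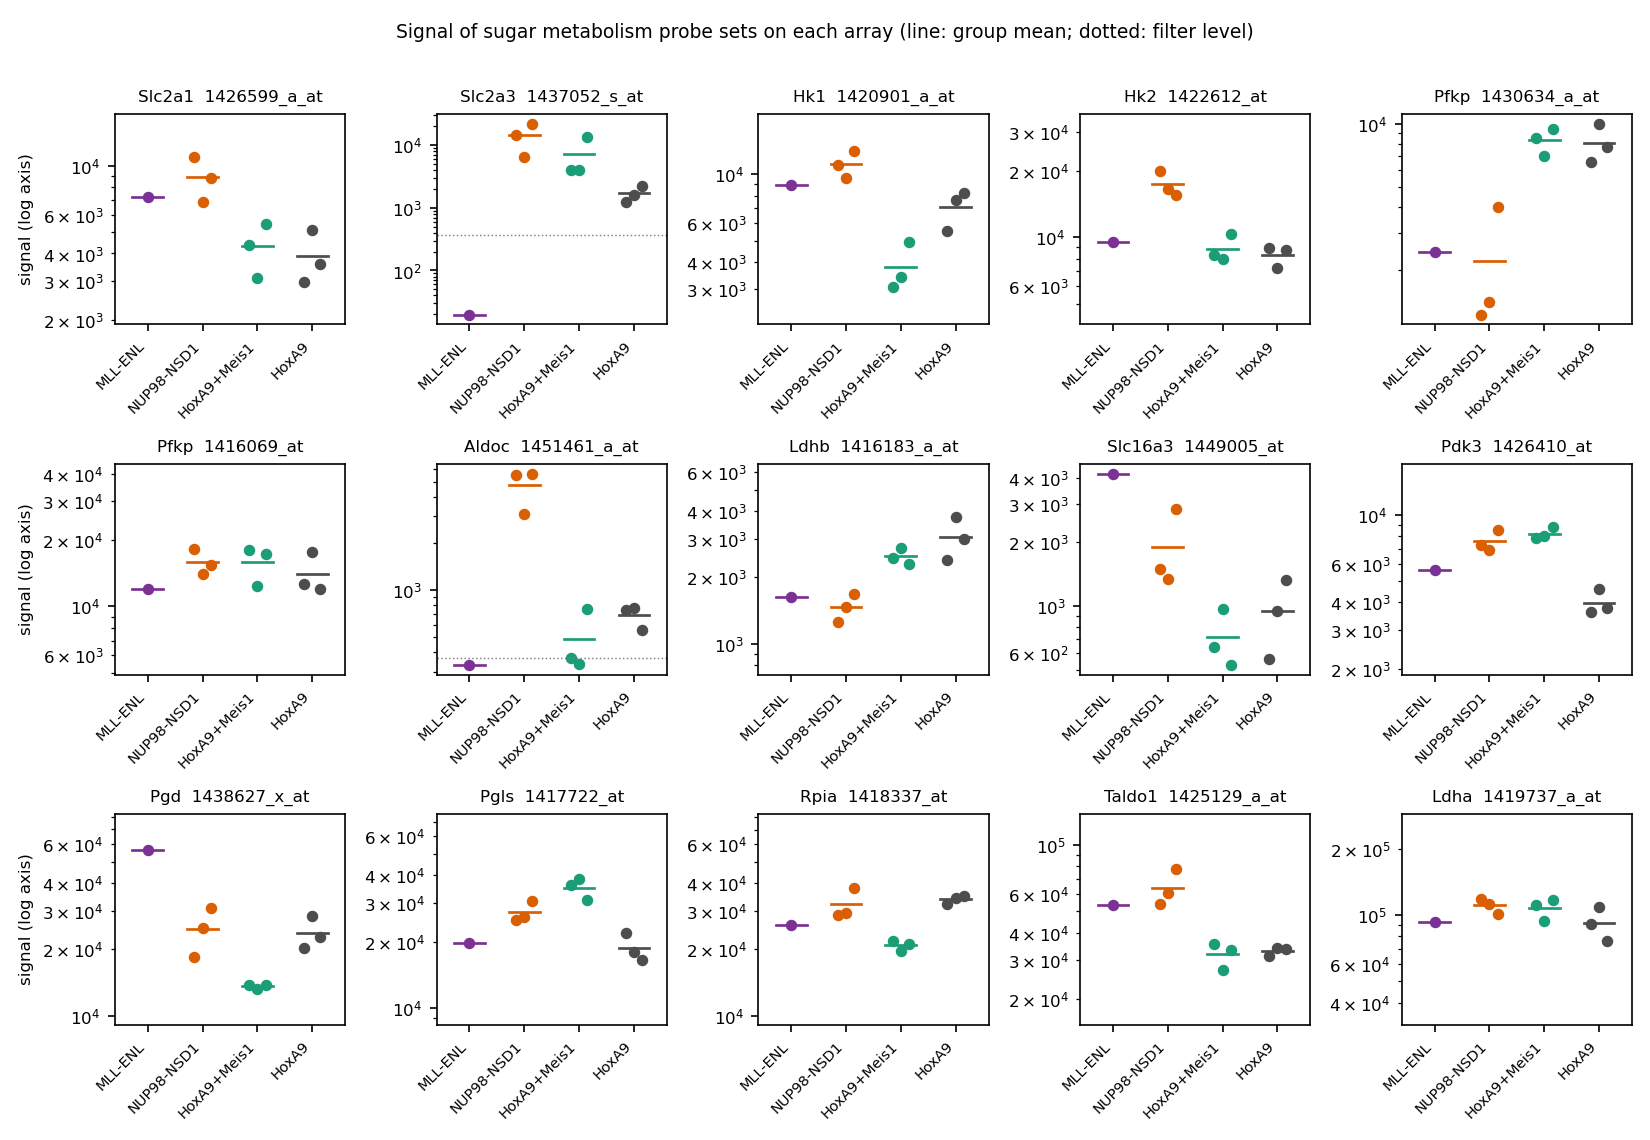
Signal on a log axis of 15 probe sets of 14 sugar genes on each array, by group; points are arrays, bars are group means and the dotted line, where in range, is the filter level. The NUP98-NSD1 clones are apart from and above the HoxA9+Meis1 and HoxA9 clones for Hk2, Aldoc and Taldo1 and below them for Pfkp 1430634_a_at, while Pfkp 1416069_at and Ldha overlap between these groups.

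Related lists had calls in both directions. Of all tested probe sets, 13.8% were called higher and 17.2% lower against HoxA9+Meis1 (30.9% in all), and 12.3% and 16.7% against HoxA9 (29% in all). The counts below stand beside those shares. Other genes of the same pathways had 7 higher and 9 lower of 39 against HoxA9+Meis1 (median -0.24) and 2 higher and 8 lower against HoxA9 (median -0.27), so their medians had the opposite sign to those of the members. The citric acid cycle list had 8 higher and 15 lower of 47 against HoxA9+Meis1 and 7 and 9 against HoxA9. NADPH users and oxidative defence had 13 higher and 4 lower of 26 against HoxA9+Meis1 and 7 higher and 5 lower against HoxA9. The higher ones included Gclm, with mean signals of 13143 in NUP98-NSD1, 3603 in HoxA9+Meis1 and 7041 in HoxA9 clones. Cybb, the catalytic part of the phagocyte oxidase, rose at 3 probe sets against HoxA9+Meis1 (2.35 to 3.37). Hypoxia response genes outside glycolysis had 7 higher and 3 lower of 46 against HoxA9+Meis1, and 5 and 5 against HoxA9, where Egln3, an oxygen sensor, rose by 1.41 and Vegfa fell by 1.49. Myc and related regulators had 2 higher and 7 lower of 23 against HoxA9+Meis1 (median -0.30) and 3 and 9 against HoxA9 (median -0.61). Myc itself rose by 0.70 against HoxA9 (adjusted p = 0.00727) and differed by 0.31 against HoxA9+Meis1 (adjusted p = 0.150). Txnip, which restrains glucose uptake, fell at both probe sets against HoxA9 (-0.63 and -0.75), and at 1 of the 2 against HoxA9+Meis1 (-0.51). Tigar, a phosphatase that lowers fructose 2,6-bisphosphate, fell against HoxA9+Meis1 at 1 of 3 probe sets, 1447934_at (-1.25), where the other 2 differed by 0.90 and 0.03 without a call. Against HoxA9 it fell at 2 of 3 (-1.28 and -0.66), and the third differed by -0.81 (adjusted p = 0.234).

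Neutrophil markers moved with these differences. The 9 mature neutrophil markers summed to 439266 to 984497 in NUP98-NSD1 clones, against 10944 to 95803 in HoxA9+Meis1 and 15884 to 74676 in HoxA9 clones, with 9 of 9 above the filter level in NUP98-NSD1 and 7 of 9 in the other groups. Not all of them were apart: Mmp9 overlapped with both other groups, Mmp8 with HoxA9+Meis1 and Lcn2 with HoxA9 clones. Markers of mast cells, basophils and eosinophils summed to 61896 to 245219 in NUP98-NSD1 clones, against 15912 to 26325 in HoxA9+Meis1 and 7145 to 11524 in HoxA9 clones. Among them Mcpt8 and Gata2 overlapped with HoxA9+Meis1 clones. Myeloid progenitor markers summed to 770951 to 939367 in NUP98-NSD1 clones, against 473195 to 481024 in HoxA9+Meis1 and 573565 to 628006 in HoxA9 clones. Of these markers Ptprc, Mpo, Elane, Prtn3 and Ctsg were higher in every NUP98-NSD1 clone, and Kit and Spi1 overlapped with the other groups. Cebpa was lower, with 19412 to 23002 in NUP98-NSD1, 25367 to 41122 in HoxA9+Meis1 and 33176 to 33905 in HoxA9 clones. The part of these markers, and of the 3′ to 5′ ratios given above, in the sugar gene differences was not tested.

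The MLL-ENL array, which shares its array set with the NUP98-NSD1 clones, had lower signals of Slc2a3, Aldoc, Hk2 and Pfkfb3 and a higher signal of 1 Pgd probe set. As there is 1 MLL-ENL array, the test assumes that it varies as the clones of the other groups do. Of the 66 probe sets, 1 was called higher and 5 lower than in NUP98-NSD1 clones (9.09%), where 3.98% of all tested probe sets were called (1.18% higher and 2.8% lower). The member median was -0.33 and that of all tested probe sets -0.07. Shifting arrays to a common median raised the median of all by 0.29, and the member median was -0.04 there, again 0.26 below that of all.

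Slc2a3 read 19.5 at 1437052_s_at on the MLL-ENL array, against 14514, 6393 and 22039 in NUP98-NSD1 clones. The array was below the filter level where every NUP98-NSD1 clone was far above it, at least 31.7-fold lower (adjusted p = 9.6e-04). At 1455898_x_at it read 148 against 4705, 2455 and 8898, at least 11.8-fold lower (adjusted p = 0.0289, and 0.0678 without NUP98-NSD1 clone 1). The other 2 probe sets were also below the filter level on the MLL-ENL array, at 64.4 and 60.8, and were not called (adjusted p = 0.173 and 0.0530). Slc2a1 read 7179, 5893 and 9904 at its 3 probe sets, with differences of -0.17 to -0.41 and no call.

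Aldoc read 331 on the MLL-ENL array, against 5506, 3083 and 5599 in NUP98-NSD1 clones, at least 11.5-fold lower (adjusted p = 0.00406). Hk2 read 9537, against 19990, 16626 and 15531 in NUP98-NSD1 clones (-0.86, adjusted p = 0.0371), and its value lay within the range of the HoxA9+Meis1 clones. Pfkfb3 fell by 1.13 at 1416432_at (adjusted p = 0.0477), a call lost under 12 of 19 alternatives, among them both other normalizations and the removal of any of 6 single clones. The Hk2 call was lost without any of 4 single clones. Pgd read 56553 at 1438627_x_at on the MLL-ENL array, against 18470, 24909 and 30908 in NUP98-NSD1 clones (1.22, adjusted p = 0.0220, and 0.0553 without NUP98-NSD1 clone 2). It was above every other array at all 4 Pgd probe sets, and the differences of 0.88 to 1.14 at the other 3 were not called.

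Of the related lists, the 39 probe sets of other genes of the same pathways had a median difference of -0.10 on the MLL-ENL array, where that of all tested probe sets was -0.07. Among them the monocarboxylate transporter Slc16a7 was higher by 2.62 and Tigar at 1447934_at by 1.61, while the other Tigar probe sets differed by 0.18 and 1.12. Mycn read 4258 against a mean of 56540 in NUP98-NSD1 clones (-3.61), while the median of the 23 probe sets of its list was 0.18. Egln3 fell by 1.64, and the median of the 46 hypoxia response probe sets was -0.18. The medians were 0.10 for the citric acid cycle list (47 probe sets) and 0.04 for NADPH users and oxidative defence (26). The 9 mature neutrophil markers summed to 18778 on this array, against 439266 to 984497 in NUP98-NSD1 clones, with 4 of 9 above the filter level and Ltf (23.2) and Camp (42.4) below it. Mast cell, basophil and eosinophil markers summed to 4296 on it, against 61896 to 245219 in NUP98-NSD1 clones, with 5 and 8 of 8 above the level. Monocyte and macrophage markers summed to 80999, against 44656 to 49296 in NUP98-NSD1 clones, with 5 and 6 of 7 above it. Csf1r, Adgre1, Cd14, Ctss and Cx3cr1 were above every NUP98-NSD1 clone. Mrc1 went the other way, with 304 on the MLL-ENL array and 1417 to 2221 in NUP98-NSD1 clones, and Marco was below the level in both. The part of these markers in the sugar gene differences was not tested.

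Variation within a group was largest for Ldhb in HoxA9 cells. Probe set 1448237_x_at read 87.8 in HoxA9 clone 1 and 2072 and 1860 in clones 2 and 3, and 1455235_x_at read 543 in clone 1 and 1638 and 1740 in the others. Probe set 1434499_a_at, left out of the tests, read 7.91 in clone 1 and 821 and 931 in clones 2 and 3, and no other array passed 51.8 there. At 1416183_a_at clone 1 was also the lowest HoxA9 clone, with 2408 against 3742 and 2970. The differences of HoxA9+Meis1 from HoxA9 at the 3 kept probe sets were -0.27, -1.71 and -1.48, and none was called.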

How the data were processed

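Cytoplasmic RNA of 10 cultures was hybridised to 10 arrays, per the labels' protocols. The deposited values were linear intensity signals, each array scaled by the authors to a 2% trimmed mean of 2500 as the values show, with software not given in the sources used here. Precision is limited by the number of arrays. Signals were taken as log2(signal + 32), and the deposited values were not otherwise normalized. Probe sets above signal 369.318 on at least 3 of 10 arrays were kept, and 51 control probe sets without a gene symbol were left out. Control probe sets with a gene symbol were tested, among them the 3 of Gapdh, which are members, and those of Actb. limma 3.58.1 in R 4.3.3 fitted 4 group means over all 10 arrays with 6 residual degrees of freedom and an intensity trend, and each adjusted p is limma's with Benjamini-Hochberg adjustment over 30957 probe sets, two-sided. The comparisons of HoxA9+Meis1 with HoxA9, NUP98-NSD1 with each, and MLL-ENL with NUP98-NSD1 share arrays. A group below the filter level on every array was set to that level for a bound. Probe sets were named through the platform annotation, where 34945 had 1 symbol, 932 several and 9160 none. The test was checked on simulated data. Members, related lists and markers were chosen with earlier results of these data known. Any member could be named, and of each related list up to 4 called probe sets with the largest differences per comparison. Alternatives covered scaling, offset, filter, probe set choice, trend, groups fitted, a replicate block and leaving out each clone. Motif counts and figures used Python 3.11.15 and matplotlib 3.10.9.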

Additional observations from a re-analysis of the deposited data

How the results depend on the processing

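Of 67 member calls in the 4 comparisons, 31 were kept under every setting run, 34 were lost under at least 1 and 9 changed sign under quantile normalization. Those 9, against HoxA9, were Pkm (-0.063), Pgk1 1417864_at (-0.12), Aldoa 1434799_x_at (-0.088), Tkt 1439443_x_at (-0.22) and Gapdh 5′ (-0.12) and middle (-0.11), and against HoxA9+Meis1, Tkt 1439443_x_at (-0.063) and Gapdh 5′ (-0.11) and middle (-0.14). For NUP98-NSD1 against HoxA9, quantile normalization gave 14 higher, 9 lower and a median of -0.079, a common median 2 lower, the brightest probe set per gene 12 higher and 1 lower (4484 of all), and probe sets with no suffix 12 and 0. Against HoxA9+Meis1 these were 8 lower with quantile normalization, 2 lower with a common median, 12 and 2 (4609 of all) with the brightest, and 10 and 0 with no suffix. For HoxA9+Meis1 against HoxA9, a common median gave 0 lower (1245 of all), the brightest 2 and 2 (1376), no suffix 3 and 1 (1373), no trend 2 lower (1001), and the compared groups alone 3 higher. For MLL-ENL against NUP98-NSD1, a common median gave 0 higher, 3 lower and a median of -0.037 (733 of all), the brightest 0 higher (683), no suffix 0 and 3, and no trend 0 and 2. The smaller totals with 1 probe set per gene or no suffix come with fewer probe sets tested. With the brightest probe set per gene, 14234 genes were tested, 32 of them members. The member counts with no suffix are given without the share of all probe sets and cannot be set against a background here. The remaining causes were not tested.

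Leaving out 1 clone at a time gave, for NUP98-NSD1 against HoxA9, 21 to 24 higher, 3 to 6 lower, medians of 0.13 to 0.32 and 6119 to 9365 of all called. Against HoxA9+Meis1 it gave 15 to 21, 2 to 5, 0.09 to 0.36 and 6564 to 9282. HoxA9+Meis1 against HoxA9 gave 2 to 7 higher (fewest without HoxA9+Meis1 clone 1, most without NUP98-NSD1 clone 3), 1 to 9 lower (without HoxA9+Meis1 clone 1 and without HoxA9 clone 1), -0.03 to 0.19 and 1132 to 2901. MLL-ENL against NUP98-NSD1 gave 0 to 4 higher and 2 to 8 lower, the most in each case without NUP98-NSD1 clone 3, medians of -0.42 to -0.29 and 676 to 2873. Clone numbers did not pair the samples: same-numbered clones had deviations correlated at -0.06 to 0.04. A replicate block gave 23 higher and 5 lower against HoxA9, 20 and 4 against HoxA9+Meis1, and 6 and 6 for HoxA9+Meis1 against HoxA9, with 8326, 8791 and 1901 of all called.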
